A study of Mus musculus with 4 samples.

Results

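The genes examined were 10 parts of the LIF and STAT3 signalling route, namely the receptor genes Lifr, Il6st and Osmr, the transcription factor gene Stat3, and the target genes Socs3, Bcl3, Junb, Ier3, Pim1 and Pim3. They were chosen by name through the gene symbols of the array platform, and all 10 were found among the 16593 genes that the array's annotated probes represent. Each gene is represented by its brightest probe over the 4 arrays. Mouse RNA was hybridised to Illumina bead arrays, with 2 arrays for each of 2 groups whose replicates the labels call biological. The first group, parnate/mAMFGi, holds cells that the labels call converted mouse ESCs; their culture description gives medium with 10% fetal bovine serum and LIF at 1000 units/ml. The second group, EpiSC, holds epiblast stem cells, which are pluripotent cells of the postimplantation epiblast, kept in medium with 20% serum replacement (KSR) and bFGF at 10 ng/ml. Both were grown on irradiated mouse embryonic fibroblast feeders. Parnate is tranylcypromine, an inhibitor of the histone demethylase LSD1, and is only a part of the group name. The mAMFGi part is not spelled out here. The labels name no strain, line or clone, and do not say whether compounds were still present at harvest. Conversion, the compounds in the group name, LIF, bFGF and serum differ together between the groups and cannot be told apart.

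LIF is a cytokine of the interleukin 6 family. It binds the LIF receptor (Lifr), which pairs with the shared signalling subunit gp130 (Il6st), and the associated JAK kinases then phosphorylate STAT3, which enters the nucleus and activates its targets. Mouse embryonic stem cells are classically maintained with LIF, whereas EpiSCs are maintained with FGF and activin signalling. Several STAT3 targets are also early response genes that growth factors induce through ERK.

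Of the 6 targets, Socs3 rose and Ier3 fell by the most, and the stretch before their start sites is shown for that contrast. The windows came from RefSeq (GRCm38.p6), 12 windows for the 10 genes, each running from 250 bases before to 50 after an annotated start. They were searched for the palindromic STAT element TTCNNNGAA, which reads alike on both strands. A match occurred in 1 of the 12 windows, that of Socs3, and in 8.3% of all 32851 windows. It spans positions -154 to -146, where -1 is the last base before the start, and stands in capitals below. The Socs3 stretch is chr11:117969447-117969566, minus strand (positions -200 to -81), and the Ier3 stretch is chr17:35821593-35821712, plus strand (positions -120 to -1), with no match in its window.
Socs3: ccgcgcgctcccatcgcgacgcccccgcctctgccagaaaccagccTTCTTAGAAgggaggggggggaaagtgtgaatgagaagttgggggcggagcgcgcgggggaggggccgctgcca
Ier3: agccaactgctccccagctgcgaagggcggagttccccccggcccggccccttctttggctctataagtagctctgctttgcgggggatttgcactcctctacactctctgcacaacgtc
The AP-1 element TGANTCA matched 1 of the 12 windows, that of Osmr, at positions 4 to 10 after the start, against 7.81% of all windows. The CRE element TGACGTCA matched 0 of them, against 1.79% of all windows. These are letter matches and not binding measurements.

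Values are linear intensities as processed by the authors. Median intensities were 52 on both parnate/mAMFGi arrays and 50 and 50.3 on the EpiSC arrays, and no value was under 25.5. Background or an offset therefore remained in every value, and folds of genes reading near the array medians may be understated. Whether such genes had signal above background was not tested. Marker genes fitted the group labels in part. Of 8 naive embryonic stem cell markers, 7 rose, against 20.2% of all genes. The 8 naive markers had a summed intensity of 41100 and 42740 in parnate/mAMFGi cells and 449 and 504.1 in EpiSCs. Of 8 epiblast markers, 4 fell and 2 rose, Otx2 and Pou3f1, against 21.2% of all genes lower and 20.2% higher. The 8 epiblast markers had a summed intensity of 7038 and 7217 in parnate/mAMFGi cells and 4936 and 5026 in EpiSCs. Summed epiblast markers were thus higher in parnate/mAMFGi cells, with Otx2 and Pou3f1 making up most of the sum. Of 7 markers shared by both kinds of pluripotent cell, 5 rose and 0 fell. Sox2, Sall4, Utf1, Tdgf1 and Lin28a rose, whereas Pou5f1 and Nanog did not pass. The 7 shared markers had a summed intensity of 27750 and 27510 in parnate/mAMFGi cells and 18960 and 19510 in EpiSCs. Pou5f1 read 10740 and 9657 in parnate/mAMFGi cells and 9628 and 10913 in EpiSCs.

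In parnate/mAMFGi cells, all 3 receptor genes, Stat3, Socs3 and Bcl3 rose, whereas Ier3, Pim3 and Junb fell and Pim1 did not pass. Log2 fold changes (parnate/mAMFGi minus EpiSC) ran from -2.26 to 1.71. By limma with an adjusted p threshold of 0.05, 6 genes rose and 3 fell, 9 of 10, against 41.5% of all genes in either direction, 20.2% higher and 21.2% lower. At least 2-fold changes were called for 5 of them, against 11.4% of all genes, and Pim3 lay at that limit with 2.00-fold. The arrays of the groups did not overlap for 9 of 10, against 66.1% of all genes. The median log2 fold change of the 10 genes was 0.79, against 0.02 over all genes.

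**Figure D1:**
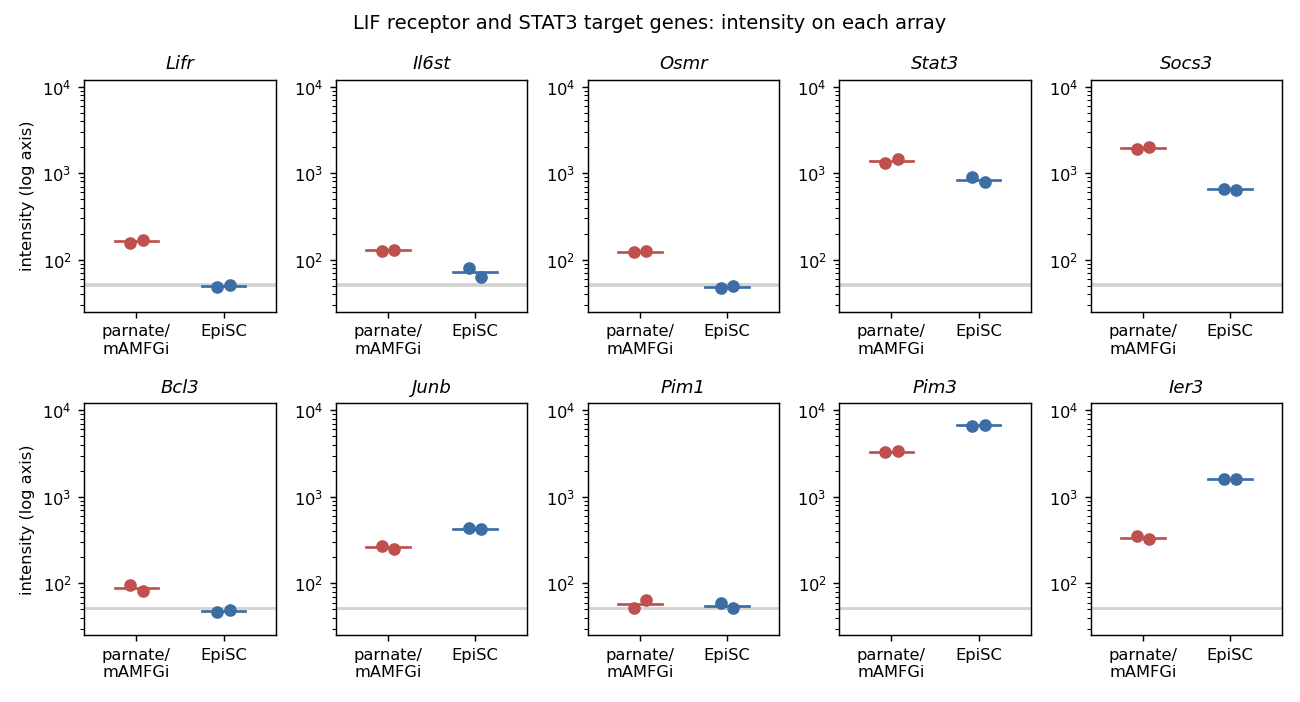
Intensity (log axis) of each of the 10 genes on each array, parnate/mAMFGi left of EpiSC; points are arrays, horizontal bars the means of 2 arrays, and the grey band the array medians of 50 to 52. Lifr, Osmr and Bcl3 lie within or just under the band in EpiSCs and above it in parnate/mAMFGi cells, Ier3 is lower on both parnate/mAMFGi arrays than on both EpiSC arrays, and the Pim1 points overlap. Levels of different genes come from different probes and are not comparable.

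The receptor genes all read higher in parnate/mAMFGi cells. Lifr, the LIF-binding subunit, read 156.2 and 168.9 in parnate/mAMFGi cells and 48 and 51 in EpiSCs, a 3.28-fold difference (log2 fold change 1.71, SE 0.10, limma adjusted p = 2.41e-09). Both parnate/mAMFGi arrays lay above both EpiSC arrays, and the EpiSC values were at the array medians. Its other 2 probes rose as well, with log2 fold changes of 1.39 and 0.71. Osmr encodes the oncostatin M receptor subunit, which also pairs with gp130. It read 120.9 and 125.8 in parnate/mAMFGi cells, against 47.3 and 49.8 in EpiSCs (2.54-fold, log2 fold change 1.35, SE 0.09, limma adjusted p = 2.43e-08). Again the groups were apart and the EpiSC arrays read near the array medians. Il6st read 126.6 and 128.7 in parnate/mAMFGi cells and 80.9 and 62.4 in EpiSCs (1.80-fold, log2 fold change 0.85, SE 0.12, limma adjusted p = 2.86e-05). For Il6st, the parnate/mAMFGi arrays lay closer to each other than the EpiSC arrays did, and the groups did not overlap. The authors' detection values were not used here, so it is not known whether Lifr and Osmr transcripts were above background in EpiSCs.

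Lifr and Osmr are neighbouring protein-coding genes on chromosome 15 in the RefSeq gene order. The coding genes on either side, examined after the values were seen, did not pass. Rictor, beside Osmr, had a log2 fold change of -0.06 (limma adjusted p = 0.727) and Egflam, beside Lifr, 0.05 (limma adjusted p = 0.761). Egflam read under the array medians in both groups.

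Fibroblasts also express these receptors, and fibroblast markers were higher in the same arrays. Of 15 feeder markers, 12 rose (10 to 12 over the alternatives), 1 fell (Thy1) and 2 did not pass, with a median log2 fold change of 0.93. In all, 86.7% of the feeder markers were called, against 41.5% of all genes (20.2% higher and 21.2% lower). The feeder markers had a summed intensity of 6794 and 6340 in parnate/mAMFGi cells and 2204 and 1961 in EpiSCs. Col1a1, a fibrillar collagen gene, read 474.7 and 441.2 in parnate/mAMFGi cells, against 109.5 and 89.7 in EpiSCs, and the small proteoglycan gene Dcn read 637.2 and 561.7, against 152.7 and 149.9 in EpiSCs. Thy1 read 293.5 and 240.7 in parnate/mAMFGi cells and 599.1 and 500.4 in EpiSCs, and the fibroblast genes Postn and Twist2 did not pass. The part of feeder RNA in the receptor rises was not tested. In these bulk samples, more cells of one type and more RNA per cell cannot be told apart.

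Stat3 and its feedback inhibitor Socs3 rose together. Stat3 read 1324 and 1450 in parnate/mAMFGi cells, against 893 and 783.4 in EpiSCs (1.66-fold, log2 fold change 0.73, SE 0.10, limma adjusted p = 3.3e-05). A second Stat3 probe gave the same log2 fold change of 0.73, and the dimmest of the 3 gave 0.30 (limma adjusted p = 0.0227). Socs3, which is induced by STAT3 and blocks gp130 and JAK signalling, read 1919 and 2008 in parnate/mAMFGi cells and 659.2 and 641.8 in EpiSCs. That is 3.02-fold (log2 fold change 1.59, SE 0.09, limma adjusted p = 3.86e-09), and the arrays within each group were close to each other. The rises in Socs3 and Stat3 came from probes well above the array medians in both groups, unlike those in Lifr and Osmr. Bcl3, an atypical member of the IκB family that acts as a nuclear cofactor of NF-κB, read 95.4 and 81.4 in parnate/mAMFGi cells. In EpiSCs it read 46.4 and 49.8, just under the array medians, which made a log2 fold change of 0.87 (SE 0.10, limma adjusted p = 6.33e-06).

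The target genes Ier3 and Junb went the other way. Ier3, a stress-inducible regulator of cell survival, read 350 and 326.9 in parnate/mAMFGi cells and 1627 and 1624 in EpiSCs. It was 4.80-fold higher in EpiSC (log2 fold change -2.26, SE 0.09, limma adjusted p = 1.09e-10), and this was the largest change in either direction among the 10 genes. Junb, which encodes an AP-1 subunit, read 272.9 and 252 in parnate/mAMFGi cells, against 437.4 and 420.3 in EpiSCs (log2 fold change -0.71, SE 0.10, limma adjusted p = 2.18e-05). In both genes every parnate/mAMFGi array lay under every EpiSC array.

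The kinase genes Pim1 and Pim3 encode related serine/threonine kinases that promote survival. Pim3 read 3297 and 3374 in parnate/mAMFGi cells and 6579 and 6775 in EpiSCs, so that it was 2.00-fold higher in EpiSC (SE 0.09 on the log2 scale, limma adjusted p = 4.83e-07). Pim1 read 51.8 and 63.6 in parnate/mAMFGi cells and 58.5 and 51.3 in EpiSCs, with the groups overlapping at the array medians. Its log2 fold change was 0.07 (95% interval -0.18 to 0.31, limma adjusted p = 0.727), and its other probe gave 0.11 (limma adjusted p = 0.512). A difference in Pim1 was not detectable at this signal. Pim2, the remaining relative, read 219.6 and 215 in parnate/mAMFGi cells and 216.7 and 201.8 in EpiSCs and did not pass.

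**Figure D2:**
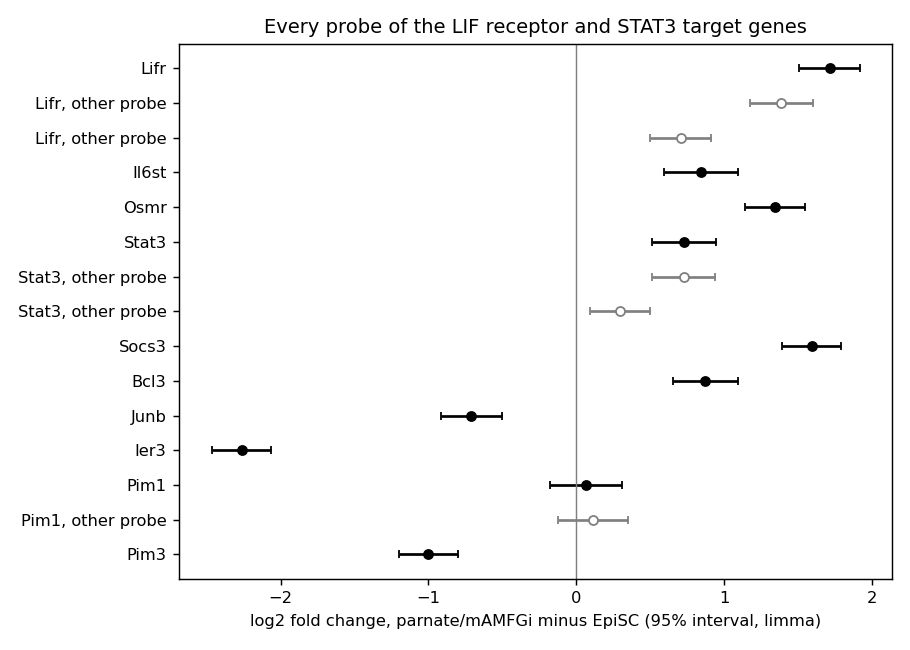
Log2 fold change of each probe of the 10 genes (parnate/mAMFGi minus EpiSC, 95% interval from limma); black points are the brightest probe of a gene and open points its other probes. All 3 Lifr probes and all 3 Stat3 probes lie above 0, both Pim1 intervals span 0, and Ier3, Pim3 and Junb lie below 0.

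The rest of the route was described by 7 lists holding 82 genes, of which 75 were measured. Of these, 21 rose, 20 fell and 34 did not pass, so that 54.7% were called, against 41.5% of all genes (20.2% higher and 21.2% lower), and their median log2 fold change was 0.03, against 0.02 over all genes. Among 8 measured cytokine ligands, 2 rose and 6 did not pass. Osm, which encodes oncostatin M, read 113.6 and 124.3 in parnate/mAMFGi cells and 40 and 52.6 in EpiSCs (log2 fold change 1.37, limma adjusted p = 3.01e-07), although its dimmer probe did not pass. Il6 rose by 0.44 on the log2 scale with all values near or under the array medians, and Il27 (0.16) and Cntf (-0.12) did not pass. Lif itself, named after its values were seen, read 50.8 and 48.9 in parnate/mAMFGi cells and 49.4 and 49.6 in EpiSCs, at the array medians, and 1 of its 2 dimmer probes passed with 0.34. These values describe RNA and not the LIF added to the medium. None of 3 other receptor genes of the cytokine family passed in limma, and 0 had an unadjusted p under 0.05. Il6ra, the interleukin 6 receptor, had a log2 fold change of 0.17 (limma adjusted p = 0.203), Cntfr -0.14 and Il27ra -0.13, and all 3 read near the array medians.

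Kinase and adaptor genes changed in both directions. Of 14 measured kinases, STATs and adaptors, 3 rose, 5 fell and 6 did not pass, 57.1% called against 41.5% of all genes. Gab1, a docking adaptor that links gp130 to the ERK and PI3K routes, read 5452 and 5951 in parnate/mAMFGi cells and 1316 and 1034 in EpiSCs (4.88-fold, log2 fold change 2.29, limma adjusted p = 8.29e-10). Jak2 read 112.5 and 108.3 in parnate/mAMFGi cells, against 405.3 and 322.1 in EpiSCs (log2 fold change -1.71, limma adjusted p = 1.28e-08). The related JAK kinase gene Tyk2 rose by 0.95, and the adaptor gene Shc1 was 2.00-fold higher in EpiSC. Dimmer probes of Jak2 (1) and Shc1 (3) did not pass, whereas all 3 Tyk2 probes rose. The other calls, named after their values were seen, were a rise in Stat4 (0.38) and falls in Ptpn11 (-0.87), which encodes the phosphatase SHP2, Stat2 (-0.81) and Stat5a (-0.43). Of their dimmer probes, 2 of 3 for Ptpn11, both for Stat4 (log2 fold changes 0.13 and -0.10) and the one for Stat5a (0.08) did not pass. Stat4 did not pass without parnate/mAMFGi replicate 1 (limma adjusted p = 0.157) or without EpiSC replicate 2 (0.0719), and its adjusted p lay between 0.00339 and 0.157 over the alternatives. Stat5a did not pass without parnate/mAMFGi replicate 1 (0.0857; 4.95e-04 to 0.0857 over the alternatives). Stat5a and Cavin1 are the coding neighbours of Stat3 on chromosome 11.

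Inhibitors of the route changed in both directions. Of 15 measured, 7 rose, 3 fell and 5 did not pass, 66.7% called against 41.5% of all genes. Over the alternatives 5 to 7 rose and 2 to 3 fell, with 5 rises whenever any single array was left out. Pias2, of the family of PIAS proteins that inhibit STATs, read 216.3 and 216.2 in parnate/mAMFGi cells and 85.7 and 90.4 in EpiSCs (log2 fold change 1.30, limma adjusted p = 3.4e-08). Ptpn6, which encodes the phosphatase SHP1, rose by 0.90 and Socs7 by 0.84. A dimmer Pias2 probe did not pass (limma adjusted p = 0.149). The least stable rises, named after their values were seen, were Socs4, which passed in 3 of 13 alternatives (limma adjusted p-values of 0.0365 to 0.231), Pias4, in 10 of 13 (0.00461 to 0.129), and Socs5, in 11 of 13 (0.00396 to 0.14). Cish, a SOCS family member best known as a STAT5 target, read 205.7 and 190.9 in parnate/mAMFGi cells, against 544.9 and 546.8 in EpiSCs (log2 fold change -1.46, limma adjusted p = 1.09e-08), opposite to its relative Socs3. The other falls, named after their values were seen, were Pias1 (-0.43) and Ptpn1 (-0.31). Pias1 did not pass without parnate/mAMFGi replicate 1 (limma adjusted p = 0.0578; 6.16e-04 to 0.0578 over the alternatives). Ptpn1 passed under 8 of 13 alternatives, with adjusted p-values of 0.0128 to 0.452 in limma, the highest without parnate/mAMFGi replicate 2, and also failed without EpiSC replicate 2 (0.222).

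**Figure D3:**
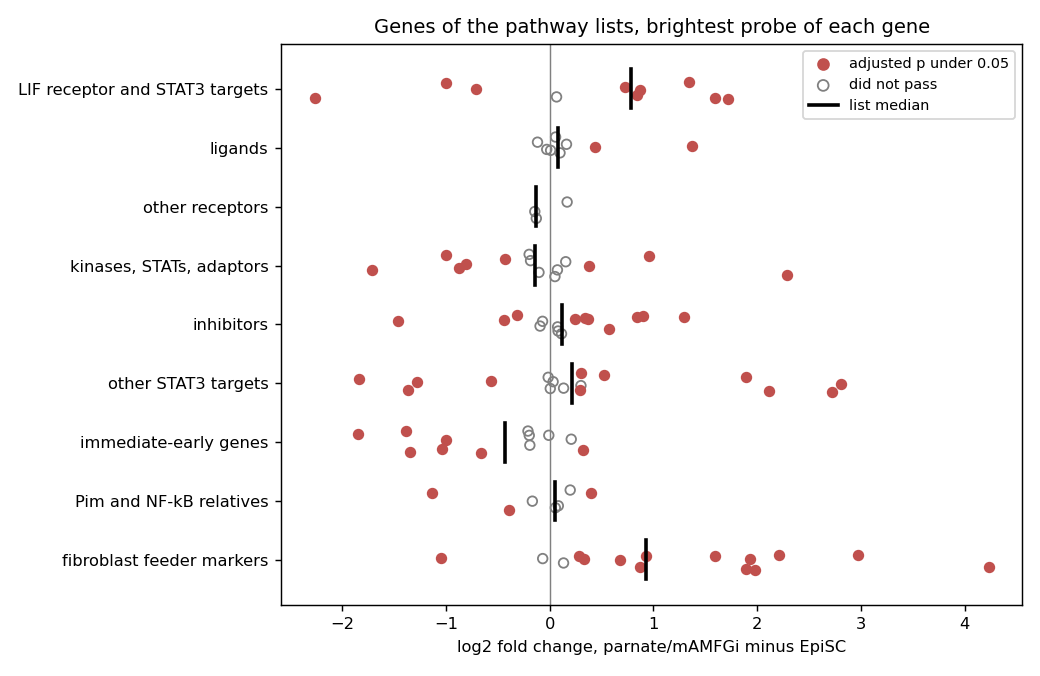
Log2 fold change (parnate/mAMFGi minus EpiSC) of each measured gene of the 10-gene set, the 7 pathway lists and the feeder markers; filled points passed an adjusted p of 0.05, open points did not, and vertical bars are list medians. Medians were 0.79 for the 10 genes, -0.43 for the immediate-early genes and 0.93 for the feeder markers.

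Other STAT3 targets also split. Of 16 measured, 7 rose (5 to 8 over the alternatives), 4 fell and 5 did not pass (median log2 fold change 0.22). In all, 68.8% were called, against 41.5% of all genes (20.2% higher and 21.2% lower). Klf4, a naive pluripotency factor that STAT3 activates in mouse embryonic stem cells, rose 7.02-fold, to 490.6 and 451.8 in parnate/mAMFGi cells against 69.9 and 64.3 in EpiSCs. Its relative Klf5 read 4947 and 5337 in parnate/mAMFGi cells and 812.6 and 750.7 in EpiSCs (log2 fold change 2.72, limma adjusted p = 2.18e-11). The kinase gene Sgk1 rose by 2.12 and the adhesion molecule gene Icam1 by 1.89 on the log2 scale. The other rises, named after their values were seen, were Pramel7 (0.52), Fosl1 (0.31) and Sbno2 (0.30). Pramel7 and Fosl1 read near or under the array medians. Fosl1 passed in 9 of 12 alternatives (log2 fold changes of 0.184 to 0.352) and Sbno2 in 9 of 13 (0.218 to 0.327). Among the failures were Fosl1 under normexp (limma adjusted p = 0.0559) and Sbno2 under scaling to a common median (0.0581). A dimmer Sbno2 probe did not pass either (limma adjusted p = 0.13). The 4 falls, named after their values were seen, were in Gbx2 (-1.84), Rgs16 (-1.36), the survival gene Mcl1 (-1.28) and Nfkbiz (-0.56). Mcl1 read 4582 and 5049 in parnate/mAMFGi cells and 11486 and 11892 in EpiSCs.

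Among immediate-early genes, to which Junb and Ier3 also belong, 6 of 12 measured fell, 1 rose and 5 did not pass, against 21.2% of all genes lower and 20.2% higher. Their median log2 fold change was -0.43, against 0.02 over all genes, and the count of 6 falls was the same under 13 alternatives. Egr1, a zinc finger gene induced through ERK, read 1069 and 951.5 in parnate/mAMFGi cells, against 4000 and 3272 in EpiSCs (log2 fold change -1.84, limma adjusted p = 5.87e-09). Fos, which encodes an AP-1 partner of JunB, read 151.2 and 160.7 in parnate/mAMFGi cells and 429.5 and 384.8 in EpiSCs (-1.38). Zfp36, which encodes an mRNA decay factor, had a log2 fold change of -1.35 and the phosphatase gene Dusp1 -1.04. The single rise was Egr2 (0.32), named after its value was seen. It did not pass without parnate/mAMFGi replicate 1 (limma adjusted p = 0.14) or replicate 2 (0.0522; 0.0113 to 0.14 over the alternatives).

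Of 7 measured relatives of Pim and Bcl3, 1 rose, 2 fell and 4 did not pass, 42.9% called against 41.5% of all genes. Nfkb2, whose p52 product can bind Bcl3, read 54.8 and 53.5 in parnate/mAMFGi cells, against 112.8 and 125.9 in EpiSCs (log2 fold change -1.14, limma adjusted p = 2.07e-07). Relb rose by 0.40, and the IκBα gene Nfkbia had a log2 fold change of -0.39. Without parnate/mAMFGi replicate 2 neither passed, with limma adjusted p-values of 0.122 for Relb (range 0.00306 to 0.122) and 0.123 for Nfkbia (range 0.00188 to 0.123). Rel (0.20) did not pass. Among markers of blood cells, which use many of these genes, Ptprc, Cd48, Spi1 and Tyrobp read near or under the array medians in both groups. Coro1a read 224.5 and 211 in parnate/mAMFGi cells and 214.6 and 256.3 in EpiSCs, above the array medians, and did not pass. Of 6 blood cell markers, 2 rose, Laptm5 and Tyrobp, 33.3% called against 41.5% of all genes. The 6 markers had summed intensities of 6499 and 5974 in parnate/mAMFGi cells and 1319 and 1069 in EpiSCs. Laptm5 read 6101 and 5602 in parnate/mAMFGi cells and 954.4 and 665.1 in EpiSCs, the larger part of each sum. Of 7 extraembryonic endoderm markers, 5 rose, with sums of 577.6 and 593.6 in parnate/mAMFGi cells and 339.3 and 356.4 in EpiSCs. That count was 2 to 5 over the alternatives, with 3 without parnate/mAMFGi replicate 1 or either EpiSC replicate and 2 without parnate/mAMFGi replicate 2, against 20.2% of all genes higher. Sox17 passed in 2 of 12 alternatives and Ttr in 4 of 12. Their part in the results was not tested.

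The genes whose centred log2 values over the 4 arrays lay closest to those of Lifr, by Euclidean distance, were Tex11 (0.0387), Cxcl5 (0.0516) and Pus1 (0.0569). Closest to Socs3 were Ptcd3 (0.022), Slc5a4b (0.0697) and Arhgef3 (0.0811), and closest to Stat3 were Plekhm1 (0.0269), Ythdf1 (0.0326) and Etaa1 (0.0355). With 4 arrays in 2 groups, this likeness is little more than a similar fold change.

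**Figure D4:**
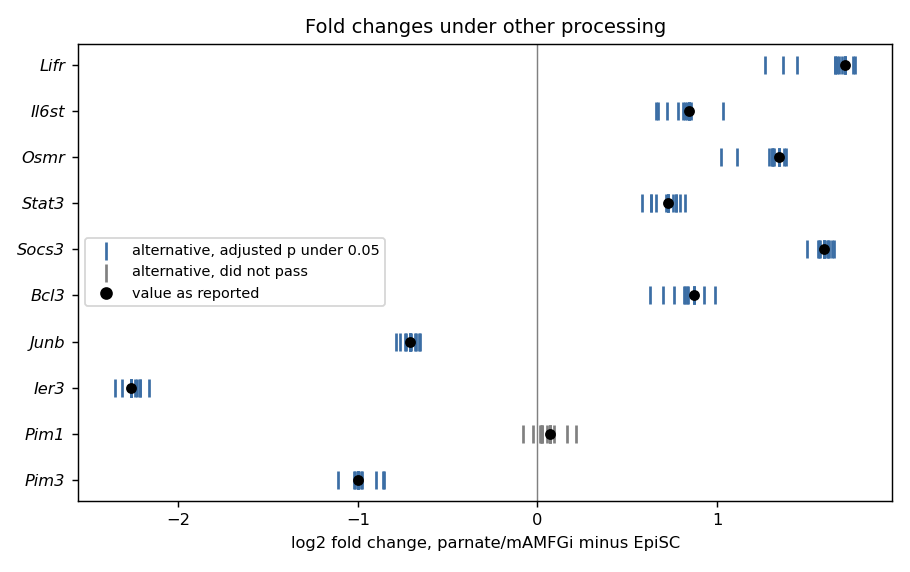
Log2 fold change (parnate/mAMFGi minus EpiSC) of the 10 genes as reported (black points) and under each alternative processing (ticks; blue passed an adjusted p of 0.05, grey did not). Every tick of 9 genes is blue and on the side of its black point, and the Pim1 ticks run from -0.081 to 0.215 and are grey.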

How the data were processed

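Total RNA of 2 parnate/mAMFGi and 2 EpiSC samples was labelled with biotin by the Illumina TotalPrep kit, per the labels' protocols, and groups follow the sample titles. The values are the deposited intensities processed by the authors, 1 per probe and array, on a linear scale; their software and normalization, not given in the sources used here, were kept as deposited. A further deposited table has 8 value columns whose names match no sample label, and these were not used.

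Intensities of all 25697 probes were log2-transformed without filter or pseudocount and tested with limma 3.58.1 under R 4.3.3 (lmFit and eBayes; 2 residual and 11.8 prior degrees of freedom, prior SD 0.0992), adjusted by Benjamini-Hochberg over all probes, threshold 0.05. The p-values rest on the spread between these arrays, in large part pooled over all probes. The pooled part weighs more, with 11.8 prior against 2 residual degrees of freedom. The number of arrays limits the precision. The fit was tested on simulated data. Platform annotation gave 23978 probes 1 symbol, 0 several and 1719 none; a RefSeq gene table (GRCm38.p6) held 23962 of them and changed 0 symbols. The brightest probe represents a gene. Of 96 genes run through the alternatives, 31 had more than 1 probe, and in 13 a probe differed in call, in 0 with opposite calls.

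The 10 genes and all lists were chosen with earlier results of these data known. Named are the 10 genes, up to 4 genes per pathway list with the largest absolute change (7 lists: ligands, other receptors, kinases with STATs and adaptors, inhibitors, other STAT3 targets, immediate-early genes, relatives of Pim and Bcl3), and the 3 genes nearest to Lifr, Socs3 and Stat3. Marker lists covered pluripotent cells (5 of 7 rose, 0 fell), ES cells, epiblast, feeders, blood and endoderm. Alternatives were 3 normalizations, normexp with offset 50, a pseudocount of 16, brighter probes alone, eBayes with trend or robust, a replicate block, leaving out each array, and 2 other probe choices. No slide or scan date is given, so such batches were not tested.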

Additional observations from a re-analysis of the deposited data

How the results depend on the processing

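The counts of 6 higher and 3 lower among the 10 genes were the same under all 15 alternatives. Of 133 values of single genes of the set under these, 131 kept their direction and their side of the threshold. The other 2 were of Pim1, which did not pass in either. Its log2 fold change was -0.081 without parnate/mAMFGi replicate 2 and -0.027 without EpiSC replicate 2, in a range up to 0.215 with 1 array left out. Lif, also not called, turned to -0.043 under quantile normalization, -0.042 under scaling to a common median, -0.029 under cyclic loess, -0.030 under normexp and -0.018 when parnate/mAMFGi replicate 1 was left out, and reached 0.037 with another array left out; the cause was not tested. Pathway list genes numbered 15 to 23 higher (21 as reported) and 18 to 21 lower (20 as reported). Probes higher numbered 3737 to 5165 and lower 3753 to 5506. With 1 array left out, its group has 1 array, assumed to vary like the other group. The replicate block, in which arrays share only a number (correlation of same-numbered deviations -0.0574), gave 5084 probes higher and 4828 lower, and the calls for the 10 genes did not change. Lifr, Osmr, Bcl3 and Pim1 read near the array medians in at least 1 group, where a remaining background may compress folds.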
